A study of Rattus norvegicus with 30 samples.

Results

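The synaptonemal complex and the meiotic cohesin were followed through 10 genes: Sycp1, which codes for the transverse filament, Syce1, Syce2, Syce3 and Tex12 of the central element, Sycp2 and Sycp3 of the lateral element, and Rec8, Smc1b and Stag3 of the cohesin ring of meiosis. These genes were taken by their Entrez Gene identifiers from the 17322 genes of the deposited expression table, and all 10 were found. The identifiers are 25276 for Sycp1, 502372 for Syce1, 364976 for Syce2, 689933 for Syce3, 690393 for Tex12, 83820 for Sycp2, 25561 for Sycp3, 290227 for Rec8, 300121 for Smc1b and 114522 for Stag3. RNA was sequenced from whole testes of Wistar Han rats of 6 postnatal ages between 8.5 and 53.5 days postpartum (dpp), and from testicular tissue explanted at 8.5 dpp and kept in organotypic culture. Explants were collected after 6 days (D6), 16 days (D16), 22 days (D22) or 28 days (D28). D6 was matched in age by testes of 14.5 dpp, D16 by 24.5 dpp, D22 by 30.5 dpp and D28 by 36.5 dpp, while 8.5 dpp was the start of culture and 53.5 dpp the oldest age. Each group held 3 libraries, except 14.5 dpp, in which 2 were used because the third was labelled an outlier and was listed at 0 for every gene. In vivo libraries came from different testes. Each cultured library pooled 12 explants of at least 3 males, cultured at a gas-liquid interphase in medium with KnockOut serum replacement, retinol and vitamin E. The central necrotic part was cut away before RNA was extracted. The animals carried no transgene and the tissue was not sorted, so each value is a mean over germ cells and somatic cells.

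In the prophase of the first meiotic division, each chromosome is organised as loops on a protein axis. Cohesin that contains the kleisin REC8, the SMC protein SMC1B and the subunit STAG3 holds sister chromatids together along that axis, and SYCP2 and SYCP3 build the lateral element on it. SYCP1 then spans the gap between paired homologous axes like the teeth of a zipper, and the central element, with SYCE1, SYCE2, SYCE3 and TEX12, joins the SYCP1 molecules in the middle. Axis proteins are loaded in leptotene, synapsis proceeds in zygotene and is complete in pachytene.

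Values are FPKM, read numbers scaled to transcript length and to the mapped reads of the library, so that levels can be compared between genes per length. Between 12520 and 13563 genes per library were above 0. Differences between groups were tested with limma on log2(FPKM + 1), a scale that understates the change of genes at a low level. A gene was called higher or lower at a Benjamini-Hochberg adjusted p of at most 0.05 over all genes tested when its group medians also differed by 2 times or more. All 10 members passed the filter of a median of at least 0.5 FPKM in a group of the fit, several of them only through the groups in which they were high. In whole tissue, fewer cells of a type and less RNA per cell cannot be told apart.

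In vivo, the summed RNA level of the members was higher at 14.5 than at 8.5 dpp and higher again at 24.5 dpp. The summed level of the 10 members was between 21.1 and 22.6 FPKM in the 3 testes of 8.5 dpp, 53.6 and 152 FPKM in the 2 testes of 14.5 dpp, and between 868 and 897 FPKM in those of 24.5 dpp. It was between 325 and 354 FPKM at 53.5 dpp. In culture, the sum stayed between 35.3 FPKM in the lowest library of D6 and 78.3 FPKM in the highest of D22. All 12 cultured libraries were above every testis of 8.5 dpp and below every testis from 24.5 dpp on.

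**Figure D1:**
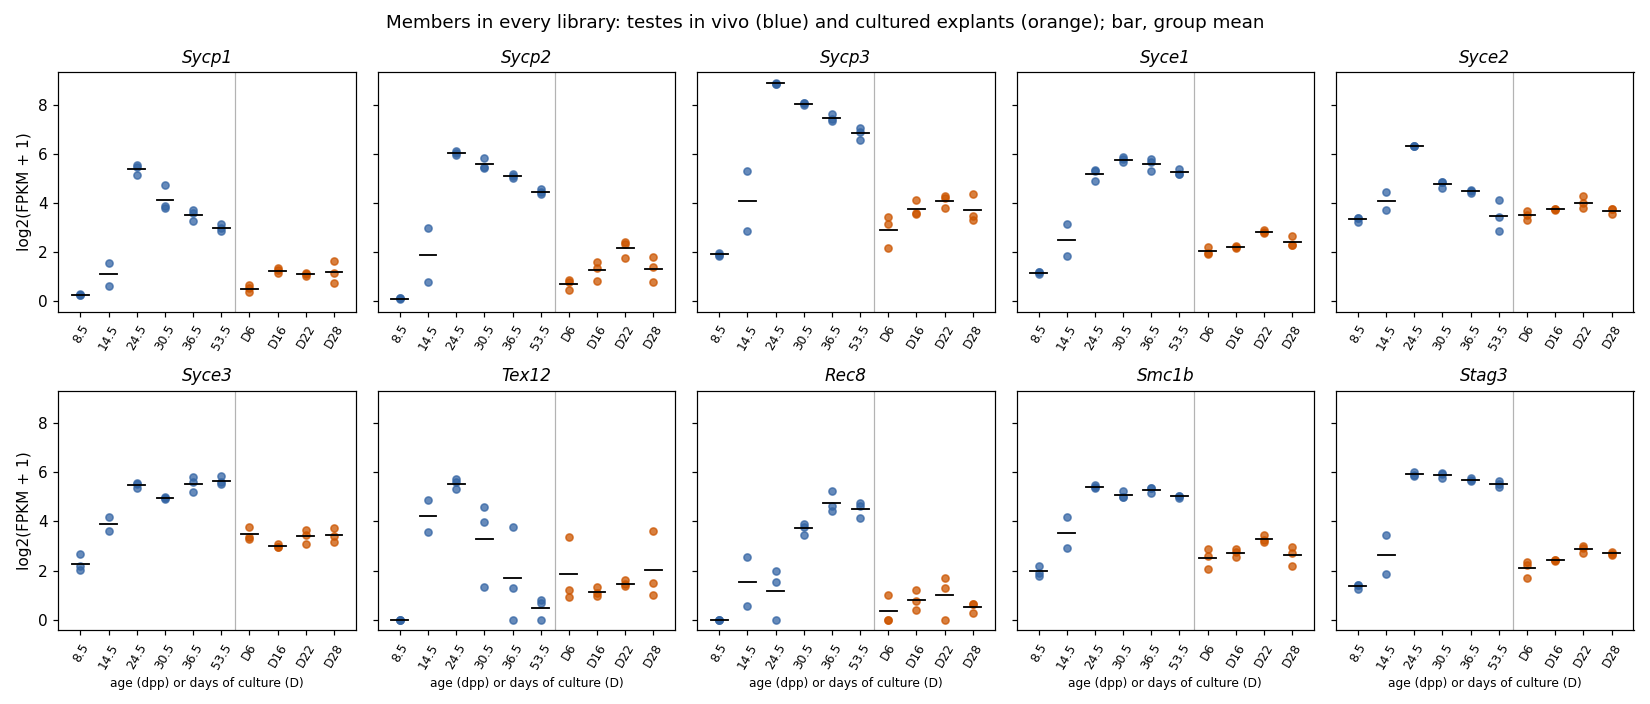
Level of each member as log2(FPKM + 1) in each of the 29 libraries, by age in vivo (blue, dpp) and days of culture (orange, D); each point is 1 library and the bar is the group mean. Most genes climb to 24.5 dpp in vivo and stay low in culture, Rec8 climbs last, Tex12 falls again, and Syce2 starts at a higher level at 8.5 dpp than the other members.

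From 24.5 dpp on, Sycp3 had the highest level of the 10 members in every testis. Sycp3, whose product is the marker protein of the axis in spermatocytes, was at 2.58, 2.68 and 2.88 FPKM at 8.5 dpp, at 6.17 and 38.4 FPKM at 14.5 dpp, and at 475, 460 and 461 FPKM at 24.5 dpp. From there, the libraries of successive ages were lower without overlap, although limma called none of the 3 steps (adjusted p = 0.0769, 0.267 and 0.224), with 266, 251 and 268 FPKM at 30.5 dpp, 160, 170 and 195 FPKM at 36.5 dpp, and 117, 131 and 93.2 FPKM at 53.5 dpp. The step from 14.5 to 24.5 dpp was a log2 difference of 4.79 ± 0.44 (SE, adjusted p = 5.88e-07), with a ratio of means of 20.9. In culture, Sycp3 was at 7.82, 9.56 and 3.52 FPKM at D6, 10.6, 11.02 and 16.1 FPKM at D16, 17.3, 18.1 and 12.8 FPKM at D22, and 8.96, 19.6 and 9.97 FPKM at D28. All cultured libraries were above all testes of 8.5 dpp and below all those of 24.5 dpp. D6 lay below D16 and D22 without overlap, and the ranges of D16, D22 and D28 overlapped.

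Sycp2, the partner of SYCP3 in the lateral element, had the lowest starting level above 0, with 0.0737 FPKM in the highest testis of 8.5 dpp. It was at 0.704 and 6.88 FPKM in the testes of 14.5 dpp and at 64.6 ± 4.30 FPKM (SD, n = 3) at 24.5 dpp. Like Sycp3, it went down in order over the later ages, to 20.9 ± 1.55 FPKM at 53.5 dpp, with no step after 24.5 dpp called by itself. In culture it was between 0.360 FPKM in a library of D6 and 4.24 FPKM in a library of D22, and its mean at D22, 3.53 ± 1.04 FPKM, was 5.46% of that at 24.5 dpp.

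Sycp1, the transverse filament, showed the same in vivo peak with a steeper decline. It was at 0.189 ± 0.0115 FPKM at 8.5 dpp, at 0.528 and 1.92 FPKM at 14.5 dpp and at 40.7 ± 6.18 FPKM at 24.5 dpp. It then fell by 1.24 ± 0.25 on the log2 scale to 30.5 dpp (adjusted p = 0.000462), where the 3 testes were at 25.2, 13.7 and 12.9 FPKM. In culture, Sycp1 was between 0.272 FPKM at D6 and 2.09 FPKM at D28, and the ranges of D16, D22 and D28 overlapped. The highest cultured library was at about the level of the higher testis of 14.5 dpp and well under the lowest testis of 53.5 dpp, which was at 6.13 FPKM.

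The 4 genes of the central element did not share a profile in vivo. Syce1 and Syce3 stayed high after 24.5 dpp: Syce1 was at 35.7 ± 5.96 FPKM at 24.5 dpp, at 53.2 ± 3.68 FPKM at 30.5 dpp and at 37.0 ± 3.08 FPKM at 53.5 dpp. Syce3 was at 44.1 ± 3.72 FPKM at 24.5 dpp and at 49.7 ± 6.27 FPKM at 53.5 dpp. Neither was called in a step after 24.5 dpp. Syce2 and Tex12 instead had a peak at 24.5 dpp.

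Syce2, whose product works as a partner of TEX12, was the member with the highest level before meiosis, with 9.52, 8.31 and 9.39 FPKM at 8.5 dpp. It was at 12.0 and 20.5 FPKM at 14.5 dpp and at 79.6, 79.4 and 77.7 FPKM at 24.5 dpp. It then fell by 1.55 ± 0.24 on the log2 scale to 30.5 dpp (adjusted p = 6.17e-05), where it was at 28.2, 23.1 and 28.1 FPKM. Its second called fall, by 1.01 ± 0.24 between 36.5 and 53.5 dpp (adjusted p = 0.00628), was lost when testis 1 or testis 2 of 53.5 dpp was left out, and the 3 testes there were at 9.60, 6.18 and 16.4 FPKM. The call was also lost after quantile normalization, and 3.93% of all genes were called lower in this step. The range at this last age included that of 8.5 dpp.

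Tex12 had the sharpest time window. It was listed at 0 in all 3 testes of 8.5 dpp, at 10.9 and 28.1 FPKM at 14.5 dpp, and at 47.3, 39.1 and 51.7 FPKM at 24.5 dpp. The testes then diverged, with 23.0, 14.7 and 1.54 FPKM at 30.5 dpp and 1.41, 12.6 and 0 FPKM at 36.5 dpp, and the level was at most 0.732 FPKM at 53.5 dpp. The fall between 24.5 and 30.5 dpp was called, by 2.24 ± 0.84 on the log2 scale (adjusted p = 0.0273), but was not called without testis 3 of 30.5 dpp, where its size was 1.27, nor without testis 1 or testis 3 of 24.5 dpp, where it was 2.22 and 2.16, nor with a pseudocount of 0.1, where it was 2.47 (adjusted p = 0.139). Exact zeros occurred in 12 of the 290 member values, all in Tex12 and Rec8, and can be failed estimates as well as absent RNA, so the libraries are given one by one for these genes. In culture, Tex12 was at 9.46, 0.887 and 1.33 FPKM at D6, 1.10, 1.51 and 0.960 FPKM at D16, 2.02, 1.55 and 1.72 FPKM at D22, and 1.79, 11.1 and 0.990 FPKM at D28. A single library stood apart at D6 and again at D28, and the other cultured libraries were all at or below 2.02 FPKM.

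The 3 cohesin genes differed from one another in their timing. Stag3 was at 1.66, 1.34 and 1.68 FPKM at 8.5 dpp, at 2.62 and 9.81 FPKM at 14.5 dpp and at 58.2, 63.6 and 56.8 FPKM at 24.5 dpp, and then stayed, with 45.1 ± 3.63 FPKM at 53.5 dpp. Smc1b followed the same course, from 2.92 ± 0.586 FPKM at 8.5 dpp to 41.8 ± 1.88 FPKM at 24.5 dpp and 31.4 ± 1.11 FPKM at 53.5 dpp. No later step of either gene was called.

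Rec8, which codes for the kleisin that is cleaved to release sister chromatids, came later than its partners. It was listed at 0 in all testes of 8.5 dpp, at 0.470 and 4.79 FPKM at 14.5 dpp, and at 1.91, 2.98 and 0 FPKM at 24.5 dpp, when Stag3 and Smc1b were already at their highest. It rose by 2.54 ± 0.48 on the log2 scale between 24.5 and 30.5 dpp (adjusted p = 0.000314) to 10.1, 14.0 and 12.7 FPKM. The highest mean was at 36.5 dpp, with 36.4, 23.7 and 20.3 FPKM, and the range there overlapped that of 53.5 dpp, from 16.7 to 26.2 FPKM. Rec8 was the only member that was called higher at 30.5 than at 24.5 dpp. In culture it was listed at 0 in 3 libraries and reached at most 2.28 FPKM, in a library of D22.

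The upstream sequence of members that moved together is shown for Sycp3 and Stag3, and that of the members with the most divergent courses for Tex12 and Rec8. RefSeq promoter sequences of the GRCr8 assembly, 250 bases before to 50 after the annotated start, were matched for 7 of the 10 members, namely Rec8, Smc1b, Stag3, Sycp1, Sycp2, Sycp3 and Tex12. The 250 bases before the start are printed, at chr7:24761226-24761475 on the plus strand for Sycp3, chr12:22398158-22398407 on the plus strand for Stag3, chr8:59809559-59809808 on the minus strand for Tex12 and chr15:33079568-33079817 on the plus strand for Rec8. Capitals mark the E2F core TCCCGC or its reverse complement GCGGGA, and the E-box CACGTG.
Sycp3: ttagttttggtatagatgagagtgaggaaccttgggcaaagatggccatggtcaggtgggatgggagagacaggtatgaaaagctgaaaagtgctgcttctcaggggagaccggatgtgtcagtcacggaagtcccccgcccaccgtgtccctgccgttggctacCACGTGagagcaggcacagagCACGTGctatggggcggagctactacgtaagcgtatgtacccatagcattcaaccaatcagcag
Stag3: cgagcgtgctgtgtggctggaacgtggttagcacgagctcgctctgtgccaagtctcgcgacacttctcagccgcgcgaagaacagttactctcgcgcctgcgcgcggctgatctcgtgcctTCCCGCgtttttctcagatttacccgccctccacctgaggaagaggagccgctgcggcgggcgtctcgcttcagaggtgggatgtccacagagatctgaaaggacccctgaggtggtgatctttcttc
Tex12: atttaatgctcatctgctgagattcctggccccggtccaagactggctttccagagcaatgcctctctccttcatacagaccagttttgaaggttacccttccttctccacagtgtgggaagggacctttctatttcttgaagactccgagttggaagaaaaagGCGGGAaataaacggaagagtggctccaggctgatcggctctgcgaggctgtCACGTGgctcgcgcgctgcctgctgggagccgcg
Rec8: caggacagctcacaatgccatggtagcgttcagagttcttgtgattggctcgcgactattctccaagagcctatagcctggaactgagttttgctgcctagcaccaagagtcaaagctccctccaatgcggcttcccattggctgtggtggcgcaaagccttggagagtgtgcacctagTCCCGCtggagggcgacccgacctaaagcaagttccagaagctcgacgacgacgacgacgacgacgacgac

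The E2F core, on either strand, was present in the 300-base window of 7 of 7 members, against 18.73% of the 33469 promoters in the table. It lay 128 bases before the start in Stag3, 86 in Tex12, 71 in Rec8, 89 in Sycp1, 32 in Smc1b and 10 in Sycp2, and 30 bases after the start in Sycp3. The E-box CACGTG was found in 2 of 7, Sycp3 with 2 copies and Tex12 with 1, against 6.42% of promoters, and the NRF1 core TGCGCA in Sycp2 and Tex12, against 7.24%. CCAAT occurred in 4 of 7 against 37.49%. The letters GCAGTT (the MYB core), TATAAA and TGACGT (the CRE core) were in none of these 7 windows, against 13.82%, 14.22% and 7.94% of promoters. The GC content of the 7 windows was 53.0% to 62.0%, above the median of 51.7% of all promoters, and the shares above were not adjusted for it. The E2F core was thus in the windows of Tex12 and of Rec8, whose courses differed the most.

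Counted over the members, 9 of 10 were called higher at 14.5 than at 8.5 dpp, where 8.37% of 12531 genes tested were called higher. Syce2 was the exception, with an adjusted p of 0.0460 but a ratio of medians under 2. Without testis 2 of 14.5 dpp, only 4 members were called. Between 14.5 and 24.5 dpp, 8 of 10 were called higher, against 14.2% of all genes, and the median log2 difference was 2.48 over the members and -0.13 over all genes. The remaining 2 were Tex12, at 1.33 ± 0.93 (adjusted p = 0.241), and Rec8, at -0.37 ± 0.54 (adjusted p = 0.592). Between 24.5 and 30.5 dpp, 1 member rose and 3 fell, against 13.1% and 24.5% of all genes. No member was called between 30.5 and 36.5 dpp by limma, where 3 had an unadjusted p under 0.05 and 7.49% of all genes were called. The steps share their middle groups and are not independent of each other.

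The 2 testes of 14.5 dpp differed in all members in the same direction. Testis 2 was higher than testis 1 in 10 of 10, by 1.53 times for Syce3 up to 10.2 times for Rec8, with a median of 3.37 times. Over the 10616 genes at 0.5 FPKM or more in both, the median ratio was 1.03, and 2.85% of genes were at least 2 times higher in testis 2. The summed level of Ddx4, Dazl and Mael, genes of germ cells, was 120 FPKM in testis 1 and 252 FPKM in testis 2, while that of 6 spermatogonia markers was 194 FPKM in testis 1 and 192 FPKM in testis 2. Markers of somatic cells differed too, with 88.0 and 201 FPKM for Leydig cells and 1313 and 1857 FPKM for Sertoli cells. Peritubular markers went the other way, with 329 and 195 FPKM, and macrophage markers were at 7.19 and 6.88 FPKM. With 2 testes, this spread cannot be tested, and it enters every comparison with 14.5 dpp.

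Against the start of culture at 8.5 dpp, the members were raised in cultured tissue. At D6, 5 of 10 were called higher (9.9% of 11539 genes tested), with Syce3 at 1.195 ± 0.20 on the log2 scale, Sycp3 at 1.01 ± 0.31, Syce1 at 0.87 ± 0.11 and Stag3 at 0.73 ± 0.14, and Tex12 as the fifth. That count fell to 2 without library 1 of D6 and to 3 without library 2. At D16, 6 of 10 were called higher (12.4%), at D22 8 of 10 (13.6%) and at D28 8 of 10 (13.6%), and none was called lower at any time. At D28, the sizes were 1.82 ± 0.31 for Sycp3, 1.35 ± 0.14 for Stag3, 1.25 ± 0.11 for Syce1 and 1.22 ± 0.26 for Sycp2. Tex12 was called at D28 (adjusted p = 0.0140) but not without library 2, which held 11.1 FPKM. The exceptions at D28 were Syce2, at 0.35 ± 0.12 with a ratio under 2, and Rec8, which was between 0.213 and 0.567 FPKM against testes listed at 0 (adjusted p = 0.252). The 4 comparisons share the testes of 8.5 dpp.

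Against 14.5 dpp, when spermatocytes first form in vivo, Tex12 was the only member called in culture. It was lower by 3.10 ± 0.64 on the log2 scale at D16, 2.76 ± 0.64 at D22 and 2.20 ± 0.64 at D28 (F test, adjusted p = 0.0181), so that 1 of 10 members was called lower each time, where 5.35%, 5.51% and 6% of 11517 genes were. Without testis 2 of 14.5 dpp, none of these 3 calls of Tex12 was made, and its differences were -2.45, -2.11 and -1.55. At D16, leaving out testis 2 brought the count of members from 1 to 0 and leaving out testis 1 brought it to 6, and at D28 leaving out testis 1 brought it to 3. Of the other 9 members, the smallest adjusted p of the F test was that of Syce3 (0.0512), followed by Smc1b (0.109), and the largest was that of Sycp1 (0.932). By limma's moderated test of the single contrast, which was not used for calls here, Syce3 was lower at D16 by 0.89 (adjusted p = 0.0124). By the same test, Smc1b was lower at D28 by 0.93 (adjusted p = 0.0475).

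These 9 genes are not shown to be equal in culture and at 14.5 dpp. The 95% interval of the log2 difference at D28 ran from -1.67 to 0.96 for Sycp3, from -1.80 to 0.68 for Sycp2 and from -0.55 to 0.71 for Sycp1. Of the 30 values of the members at D28, 20 lay between the 2 testes of 14.5 dpp, 9 below both and 1 above both, where over 11404 genes 17.94% of values lay between the testes, 46.07% below and 35.98% above. At D6, the culture time that matches 14.5 dpp in age, no member was called by limma, 3 had an unadjusted p under 0.05, and 7.94% of 11309 genes were called. There, 19 of 30 values lay below both testes, 11 between them and none above, against 41.88%, 22.3% and 35.82% of values over all genes. At both times, the share between the testes depends on how far apart the testes are. They differed by a median of 3.37 times for the members, while 2.85% of all genes were at least 2 times higher in testis 2. These shares therefore do not measure likeness to 14.5 dpp, and values from the same library are not independent.

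**Figure D2:**
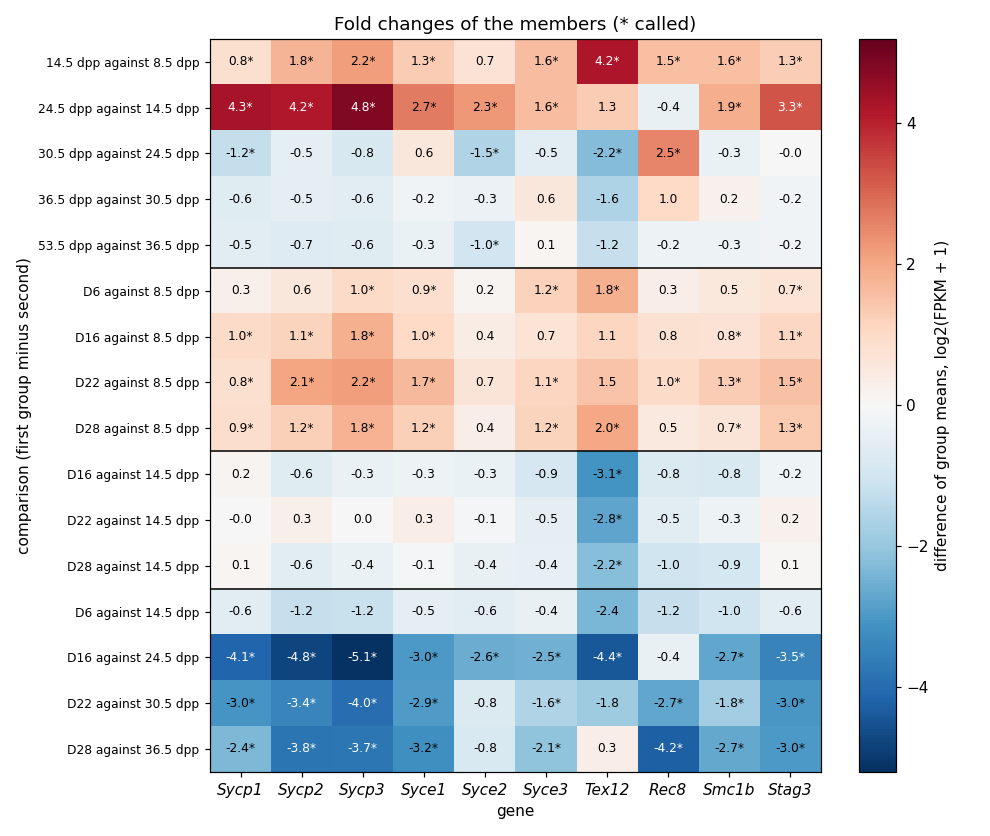
Differences of group means on the log2(FPKM + 1) scale for the 10 members (columns) in 16 comparisons (rows); red is higher and blue lower in the group named first, and an asterisk marks a called difference. The age-matched comparisons in the lowest 3 rows are blue for most members, those with 8.5 dpp are red, and those of culture with 14.5 dpp hold asterisks for Tex12 alone.

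Against testes of the same age, the deficit was large from D16 on. At D16, 9 of 10 members were called lower than at 24.5 dpp, where 18.3% of 11658 genes were called lower. The ratio of means was 45.3 for Sycp2, 38.7 for Tex12, 37.0 for Sycp3 and 29.9 for Sycp1, but 13.6 for Stag3, 9.89 for Syce1, 7.37 for Smc1b, 6.41 for Syce2 and 6.31 for Syce3. At D16, Sycp2, Sycp3, Sycp1 and also Tex12 of the central element thus stood further below their testes than the other called members did. The difference between genes was not tested. At D28 against 36.5 dpp the order was another one. The ratio there was 61.0 for Rec8, 20.9 for Sycp2, 13.6 for Sycp3, 10.9 for Syce1, 9.30 for Stag3 and 8.01 for Sycp1. It was 7.24 for Smc1b, 4.63 for Syce3, 1.78 for Syce2 and 1.015 for Tex12. The member not called at D16 was Rec8, at 1.28, 0.328 and 0.685 FPKM at D16 against 1.91, 2.98 and 0 FPKM at 24.5 dpp (log2 difference -0.39 ± 0.50, adjusted p = 0.505). The median log2 difference at D16 against 24.5 dpp was -3.24 over the members and 0.12 over all genes tested.

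At D22, 8 of 10 members were lower than at 30.5 dpp (22.9% of 12118 genes), from Sycp3 at -3.96 ± 0.14 (adjusted p = 5.76e-07) to Syce3 at -1.56 ± 0.15 (adjusted p = 5.66e-05). Rec8 was now among them, at -2.72 ± 0.41 (adjusted p = 0.000564), being at 2.28, 1.42 and 0 FPKM in culture and at 10.1 FPKM or more in vivo. Syce2 was lower by less than 2 times in its medians, and Tex12 had an adjusted p of 0.0559.

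At D28, 8 of 10 were lower than at 36.5 dpp (23.6% of 12210 genes, with 46.7% called higher), where all genes had a median difference of 0.64. Rec8 had the greatest difference, at -4.24 ± 0.22 (adjusted p = 1.40e-06), followed by Sycp2 at -3.79 ± 0.24, Sycp3 at -3.74 ± 0.27, Syce1 at -3.18 ± 0.17, Stag3 at -3.00 ± 0.09 and Smc1b at -2.68 ± 0.20. For 9 of 10 members, all except Tex12, every library of D28 lay below every testis of 36.5 dpp, as for 30.21% of all genes. Syce2 was at 10.7, 12.6 and 12.3 FPKM in culture and at 19.9, 21.6 and 22.0 FPKM in vivo, without overlap but with a ratio of means of 1.78. Tex12 could not be ordered, since both groups held 1 library of over 10 FPKM and others under 2 FPKM (log2 difference 0.34 ± 1.03, adjusted p = 0.765).

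Expressed as a share of its highest in vivo mean, the level at D28 ranged from 1.64% for Rec8 to 20.1% for Syce3, with a median of 8.70%. Sycp2, Sycp3 and Sycp1 were at 2.47%, 2.76% and 3.22%, Syce1 and Stag3 at 8.15% and 9.26%, and Smc1b and Syce2 at 12.7% and 15.1%. The peak ages differ between genes, so these shares compare each gene with its own best in vivo mean and not with 1 age.

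The change over time was compared between both settings by an interaction term. From D6 to D16, 8 of 10 members gained less than from 14.5 to 24.5 dpp (11.9% of 11944 genes in that direction), by 3.96 ± 0.79 on the log2 scale for Sycp3 and 1.64 ± 0.44 for Smc1b at the extremes. From D16 to D28, compared with 24.5 to 36.5 dpp, the sign was mostly opposite. There, 5 of 10 (Tex12, Syce2, Sycp1, Sycp3 and Sycp2) were called higher, beside 28.3% of 12420 genes. Their in vivo means at 36.5 dpp were lower than at 24.5 dpp, with ratios from 0.102 for Tex12 to 0.517 for Sycp2. The in vivo means of Syce1, Syce3 and Rec8 were higher at 36.5 dpp. Rec8, which rose only in vivo, was called lower (13% of all genes). The median was 0.75 over the members and 0.50 over all genes. The split of all calls in that interaction was 3516 higher and 1615 lower, and 2176 and 1857 after quantile normalization.

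Markers of the cell types of the testis were read beside the members. The summed level of Ddx4, Dazl and Mael was between 55.1 and 108 FPKM at D28 and between 418 and 509 FPKM at 36.5 dpp, against 32.1 to 33.1 FPKM at 8.5 dpp. Of these, Ddx4 and Mael were called lower at D28 than at 36.5 dpp, beside 23.6% of 12210 genes. The 7 markers of pachytene spermatocytes summed to between 22.2 and 29.7 FPKM over all cultured libraries. Their sums were 17.1 to 19.6 FPKM at 8.5 dpp and 1249 to 3376 FPKM in testes from 24.5 dpp on. All 7 were called lower at D28 than at 36.5 dpp, beside the same 23.6% of all genes. Ldhc, the lactate dehydrogenase of spermatocytes, was listed at 0 in 9 of 12 cultured libraries and at no more than 0.390 FPKM in the others. The 6 markers of spermatids were all lower as well, beside that same share. Beside 46.7% of all genes, 6 of 6 spermatogonia markers and 7 of 8 Sertoli markers were higher at D28 than at 36.5 dpp, with spermatogonia sums of 113 to 140 FPKM against 16.0 to 22.5 FPKM, and Sertoli sums of 3613 to 4309 FPKM against 468 to 609 FPKM. At D28, the germ cell, pachytene and spermatid sums were thus lower than at 36.5 dpp, as were most members. The spermatogonia and Sertoli sums were higher. The part of these marker shifts in the differences of the members was not tested.

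**Figure D3:**
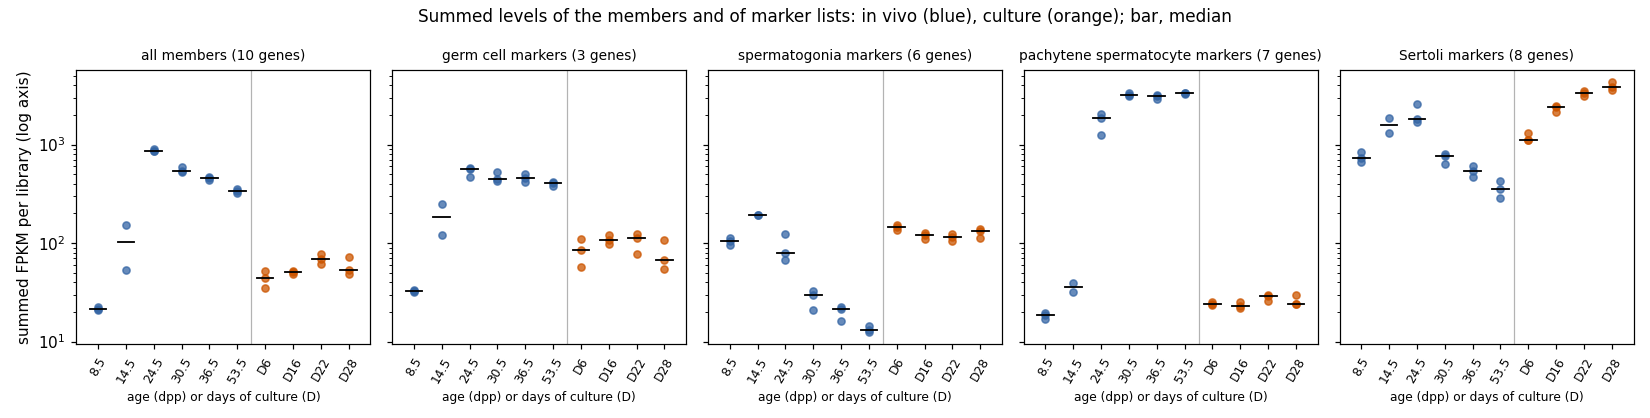
Summed FPKM per library (log axis) of the members and of 4 marker lists, by age in vivo (blue, dpp) and days of culture (orange, D); points are libraries and bars are group medians. Pachytene markers rise to 1249 FPKM or more in vivo and stay between 22.2 and 29.7 FPKM in culture, against 17.1 to 19.6 FPKM at 8.5 dpp. The members in culture also lie above their level at 8.5 dpp.

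Relative to the mean log2 level of Ddx4, Dazl and Mael in the same library, the deficit was smaller or absent for several members. The 3 markers did not move alike. Over the 12 cultured libraries, the median was 84.9 FPKM for Dazl, 7.07 FPKM for Ddx4 and 10.2 FPKM for Mael. Over the 17 in vivo libraries, it was 84.3, 60.8 and 223 FPKM. The relative level thus depends on the markers chosen and is not a measure per germ cell. The mean of the 10 members was -2.05 ± 0.03 (SD, n = 3) at 8.5 dpp, -1.68 ± 0.14 at 24.5 dpp, -2.01 ± 0.29 at 36.5 dpp, -2.07 ± 0.05 at D16 and -1.70 ± 0.07 at D28, on the log2(FPKM + 1) scale. With Ddx4 alone as the reference, the difference between D28 and 36.5 dpp was 0.93 in place of 0.31. Stag3 was at -1.36 ± 0.25 at D28, -1.29 ± 0.05 at 24.5 dpp and -1.21 ± 0.09 at 36.5 dpp, with 1 library of D28 below all testes of 36.5 dpp and 2 within their range. Smc1b was at -1.44 ± 0.17 at D28, above all testes of 24.5 dpp in 3 of 3 libraries and above all of 36.5 dpp, at -1.62 ± 0.12, in 2 of 3. With Ddx4 alone as the reference, both genes were higher at D28 than at 36.5 dpp, with Stag3 at -0.05 ± 0.30 against -0.52 ± 0.09 and Smc1b at -0.13 ± 0.15 against -0.93 ± 0.14. By the 3 markers, 88.8% of 12210 genes lay above all testes of 36.5 dpp at D28, so a higher relative level is not particular to these genes. That share was not computed for Ddx4 alone.

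Sycp3 and Sycp2 at D28 were below the testes of 24.5 and 36.5 dpp by the mean of the 3 markers. Sycp3 was at -1.39 ± 0.06 at 8.5 dpp and -0.35 ± 0.33 at D28, above its start but below 1.65 ± 0.13 at 24.5 dpp and 0.54 ± 0.04 at 36.5 dpp. Sycp2 was at -2.74 ± 0.27 at D28 against -1.18 ± 0.08 at 24.5 dpp and -1.82 ± 0.09 at 36.5 dpp. With Ddx4 alone, Sycp3 was at 0.96 ± 0.28 at D28, overlapping 1.23 ± 0.02 at 36.5 dpp and still below 2.77 ± 0.18 at 24.5 dpp, and Sycp2 was at -1.43 ± 0.24, below -1.13 ± 0.10 at 36.5 dpp and overlapping -1.40 ± 0.06 at 53.5 dpp. By the 3 markers, Rec8 was at -3.54 ± 0.31 at D28, lower than -2.17 ± 0.53 at 36.5 dpp, while Syce2 was higher, at -0.37 ± 0.17 against -2.45 ± 0.10. Across the 10 members, all libraries of D28 lay below all of 36.5 dpp for 3 (Sycp2, Sycp3 and Rec8) and above for 3 (Sycp1, Syce2 and Tex12). The libraries overlapped for 4, as a description without a test. On the same scale, 7.24% of 12210 genes lay below and 88.8% above. With a pseudocount of 0.1, Sycp1 ran from -4.08 to -3.10 at D28 and from -3.73 to -3.24 at 36.5 dpp. Tex12 ran from -3.79 to -0.749 at D28 and from -10.4 to -3.16 at 36.5 dpp. Both thus overlapped with that pseudocount, while Syce2 stayed above and Sycp2, Sycp3 and Rec8 stayed below.

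**Figure D4:**
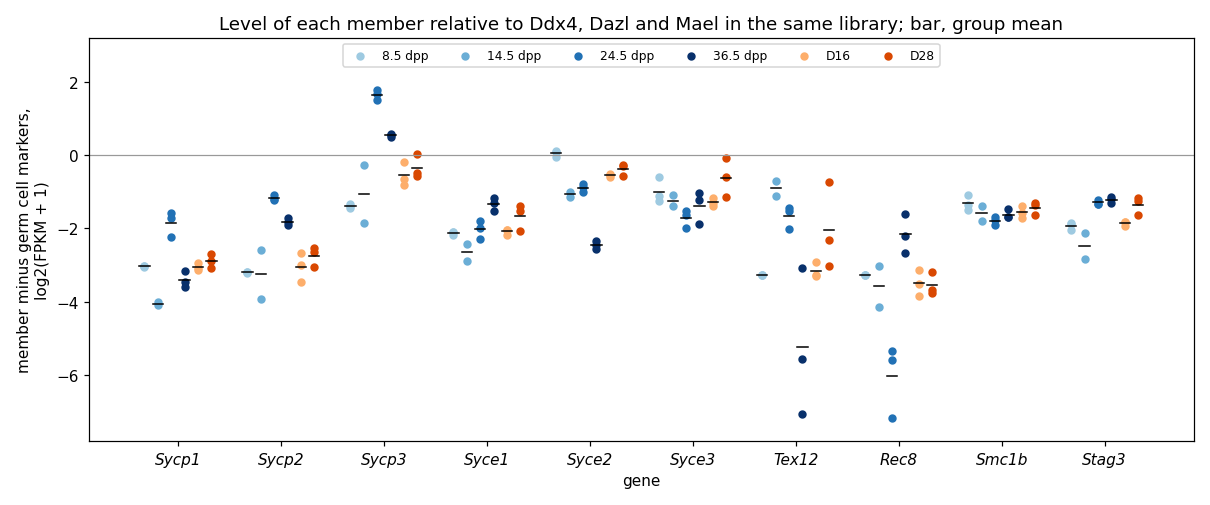
Level of each member minus the mean of Ddx4, Dazl and Mael in the same library, on the log2(FPKM + 1) scale, for 4 ages in vivo (blue shades) and 2 culture times (orange shades); points are libraries and bars are group means. Sycp3 and Sycp2 at D28 lie below 24.5 dpp, Stag3 at D28 overlaps 24.5 and 36.5 dpp, Smc1b at D28 lies above 24.5 dpp, and Syce2 at D28 lies above 36.5 dpp.

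Other genes of the axis and of cohesin were read beside the members. Hormad1, which codes for a HORMA domain protein of unsynapsed axes, was at 180 ± 3.17 FPKM at 24.5 dpp, 10.2 ± 0.548 FPKM at D16 and 8.88 ± 2.22 FPKM at D28, and was lower at D16 than at 24.5 dpp by 4.02 ± 0.08 on the log2 scale (adjusted p = 3.70e-06). Hormad2, Fkbp6 and Sgo2 were also lower at D16, so that 4 of 5 genes of this list were called, beside 18.3% of all genes. At D28, 3 of 5 were lower than at 36.5 dpp (23.6% of all genes) and Trip13 was higher (46.7%). Against 14.5 dpp, where the members gave 1 call, Sgo2 (a protector of centromeric cohesion) and Trip13 were called lower at D28, beside 6% of all genes. Of the 11 shared and mitotic cohesin genes, 4 were higher at D28 than at 36.5 dpp and 2 lower, beside 46.7% and 23.6% of all genes, with Rad21, the mitotic kleisin, at 95.2 ± 21.2 FPKM against 15.7 ± 1.02 FPKM in vivo, and Smc1a, the mitotic counterpart of Smc1b, at 8.60 ± 0.886 FPKM against 1.49 ± 0.227 FPKM. Stag2 was higher too, by 2.32 ± 0.22 on the log2 scale. At 36.5 dpp, the lowest testis for Rec8, at 20.3 FPKM, was above the highest for Rad21, at 16.8 FPKM, whereas at D28 Rec8 was at most 0.567 FPKM.

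Across the 29 libraries, most members moved together. Pearson's r of log2(FPKM + 1) had a median of 0.824 over the 45 pairs of members and ranged from 0.00 for Tex12 with Rec8 to 0.991 for Syce1 with Stag3. Sycp3 (r = 0.994) and Sycp2 (0.992) were closest to the mean of the other members, and Syce2 (0.728), Rec8 (0.677) and Tex12 (0.488) were furthest from it. The libraries share groups, so these values describe the time course and not independent samples. Among the 12 cultured libraries, after subtraction of each group's mean, Syce3 ran against the other members, with r from -0.824 to -0.079 and a median of -0.649 over its 9 pairs, while the median of all pairs was 0.352. Of 12719 genes outside the list, the 5 most like the mean of the members over the 10 group means were Prss38, Enthd1, Hormad1, Tdrd1 and Pc, with r between 0.990 and 0.996.

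For 3 members, an overlap with another gene of the expression table is listed in the RefSeq table: Syce2 with Gcdh, Sycp3 with Chpt1 and Tex12 with Il18, and the counting of reads by strand is not given in the sources used here. Gcdh was at 23.8 ± 6.27 FPKM at D28 and 3.00 ± 0.437 FPKM at 36.5 dpp and fell in vivo from 12.8 ± 3.26 FPKM at 24.5 dpp, where Syce2 had its peak. Chpt1 was at 3.81 ± 0.631 FPKM at D28 and 17.5 ± 3.81 FPKM at 24.5 dpp, where Sycp3 was far higher. Il18 did not exceed 8.37 FPKM in any library. The part of these neighbours in the values of the members was not tested.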

How the data were processed

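The authors sequenced polyadenylated RNA as 50 bp single reads with a stranded kit, aligned the reads with STAR 2.5.2a to the rn6 genome, quantified genes with StringTie 1.3.3 and normalised with Ballgown. They deposited FPKM values, relative to transcript length and mapped reads, for 17322 genes in 30 libraries. Of these genes, 17172 were matched by Entrez Gene identifier to RefSeq symbols. No read counts were used here, and sequencing depth per library is therefore unknown. Replicates are separate testes in vivo and separate pools of explants in culture.

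Values were transformed to log2(FPKM + 1) and fitted with limma 3.58.1 in R 4.3.3, by group. D16, D22 and D28 were tested against 14.5 dpp in 1 fit by the F test, D6 to D28 against 8.5 dpp in 1 fit, the steps of age in 1 fit of the in vivo groups, and each age-matched pair in its own fit. For interaction terms, a call needed an absolute log2 value of at least 1. The fits were tested on simulated data. Levels relative to germ cell markers, correlations and sequence matches are descriptions without a test. Tables were handled in Python 3.11.15 with pandas 2.3.3 and numpy 2.4.6, and figures were drawn with matplotlib 3.10.9.

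All 10 members were tested in every comparison, but some comparisons are given as counts or with part of the members named. The genes of fixed lists are given mainly by their counts, beside the 5 most similar other genes. The members and lists were chosen with earlier results of these data known. Of 73 genes on the lists beside the members, 62 were found, and the others were not analysed here. Alternatives changed the pseudocount to 0.1, the filter, the normalisation, the groups in the fit, the fold criterion, the prior variance and the pairing, or left out 1 library at a time.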

Additional observations from a re-analysis of the deposited data

Results flagged for a closer look

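The change over time differed between culture and testis for 8 members from D6 to D16 compared with 14.5 to 24.5 dpp, and for 6 members from D16 to D28 compared with 24.5 to 36.5 dpp, each by limma's test of the interaction term. In the earlier period, the log2 difference of the changes, culture minus in vivo, was -3.96 for Sycp3, -3.60 for Sycp2, -3.56 for Sycp1, -2.93 for Stag3, -2.53 for Syce1, -2.09 for Syce3, -2.01 for Syce2 and -1.64 for Smc1b.

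In the later period, it was 4.76 for Tex12, 1.80 for Syce2, 1.78 for Sycp1, 1.38 for Sycp3, 1.0 for Sycp2 and -3.85 for Rec8. The median of all genes tested was 0.50 in this period. The value of Sycp2 lay at the limit of 1 that a call needs and was not called with a pseudocount of 0.1 (adjusted p = 0.13) or in 1 fit of all 10 groups (adjusted p = 0.0682), nor without testis 2 of 24.5 dpp, testis 2 of 36.5 dpp, library 3 of D16, or library 2 or 3 of D28. No group held the 4 or more libraries needed to look for single libraries that stand apart.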

How the results depend on the processing

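Over all alternatives that kept every library, 1222 of 1260 values of single members kept both their direction and their call, and 2 reversed direction. Of the counts, means and correlations, 124 of 133 stayed within a fixed distance of the main value. When single libraries were left out, 2117 of 2239 values kept direction and call, and 40 reversed direction. Of the counts, 207 of 224 stayed within that distance. In 1 fit of all 10 groups, the members called went from 1 to 3 at D16 and from 1 to 2 at D28 against 14.5 dpp, and from 0 to 3 for D6. A trended and robust prior gave 2 for D16 against 14.5 dpp. Without the fold criterion 1 was called between 30.5 and 36.5 dpp, and after quantile normalization 0 between 36.5 and 53.5 dpp. The mean of members relative to germ cell markers differed between D28 and 36.5 dpp by 0.93 and between D28 and 8.5 dpp by 0.63 with Ddx4 alone, and the latter by 1.23 with log2(FPKM + 0.1), against 0.31 and 0.35. The interaction of Smc1b in the later period turned to -0.01 with a pseudocount of 0.1 and to -0.02 after quantile normalization, from 0.01. Quantile normalization moved the median difference of all genes at D28 against 36.5 dpp from 0.64 to 0.43. The cause of these changes was not tested.

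Replicate numbers did not pair the libraries: r of same-numbered deviations was between -0.126 and 0.189 over 26 pairs, 3 of them over 0.1. With the replicate number as a block, 9 members were called for D22 against 30.5 dpp and 6 for D6 against 8.5 dpp, in place of 8 and 5, and no other count of members changed.

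Leaving out 1 library gave 0 to 6 members called at D16, 1 to 2 at D22 and 1 to 3 at D28 against 14.5 dpp, 0 to 3 for D6 against 14.5 dpp, 4 to 10 between 8.5 and 14.5 dpp, 0 to 1 between 30.5 and 36.5 dpp and between 36.5 and 53.5 dpp, and 2 to 6 for D6 against 8.5 dpp. Against ages of 24.5 dpp and later the counts were 9 to 10, 8 to 9 and 8 to 8. The direction turned 40 times over 29 uncalled values, 24 of these times without a testis of 14.5 dpp. At D16 against 14.5 dpp, the range was -1.01 to 0.57 for Stag3, -0.31 to 0.62 for Sycp1, -1.56 to 0.90 for Sycp3, -1.75 to 0.23 for Rec8, -0.70 to 0.03 for Syce2, -0.94 to 0.39 for Syce1 and -1.74 to 0.47 for Sycp2. At D22, it was -0.55 to 1.03 for Stag3, -1.22 to 1.24 for Sycp3, -1.54 to 0.44 for Rec8, -0.91 to 0.37 for Smc1b, -0.42 to 0.30 for Syce2, -0.31 to 1.01 for Syce1 and -0.83 to 1.38 for Sycp2. At D28, it was -0.73 to 0.85 for Stag3, -0.39 to 0.55 for Sycp1, -1.59 to 0.87 for Sycp3, -0.73 to 0.59 for Syce1 and -1.66 to 0.55 for Sycp2, and at D6 -1.35 to 0.23 for Stag3, -2.39 to 0.06 for Sycp3 and -1.11 to 0.21 for Syce1. Elsewhere, it was -0.98 to 0.02 for Rec8 at D16 against 24.5 dpp, -0.50 to 1.39 for Tex12 at D28 against 36.5 dpp, -1.36 to 0.62 for Rec8 between 14.5 and 24.5 dpp, -0.06 to 0.04 for Stag3 between 24.5 and 30.5 dpp, -0.05 to 0.25 for Syce3 between 36.5 and 53.5 dpp, and, for the interactions, -0.17 to 1.81 for Rec8 and -0.16 to 0.23 for Smc1b.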
